A study of Mus musculus with 14 samples.

Results

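The 6 genes Myh1, Myh2, Myh4, Myh7, Myh3 and Myh8, which encode the adult and developmental myosin heavy chains of skeletal muscle, were followed through 14 days of muscle overload in old mice. They were taken by their gene symbols, as the probe sets whose array annotation gave one of these symbols and no other. Each symbol had exactly 1 such probe set, so the family was 6 of the 19938 genes measured, and 0 probe sets named a member together with another gene. Whether the probes of one member also caught RNA of another was not tested. The muscle was the plantaris, which lies in the calf, of C57BL/6J males aged 25 months, and it was overloaded by synergist ablation, the removal of the gastrocnemius and soleus. There were 7 groups, days 0, 1, 3, 5, 7, 10 and 14 of overload, each with 1 array of pooled right and 1 array of pooled left plantaris muscles of 6 animals. All groups shared strain, sex, age and muscle, and the source label called every sample healthy. No array was labelled as sham-operated, the labels do not state whether the day 0 animals had surgery, and young muscle was not analysed here. Surgery and load therefore cannot be told apart. The design text was taken to mean that the same 6 animals gave the right and the left pool of a day. P-values then rest on the spread between the 2 sides of 1 set of animals, and day and animals cannot be told apart.

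The myosin heavy chain is the motor of the thick filament: its head splits ATP and pulls on actin, and its tail bundles with other tails into the filament. Adult limb fibres are classed by the chain they make. Myh4 encodes the IIb chain of the fastest fibres, Myh1 the IIx chain, Myh2 the IIa chain of fast oxidative fibres, and Myh7 the slow chain that is also the beta chain of heart muscle. Myh3 encodes the embryonic and Myh8 the perinatal chain, which are made in developing muscle and again in regenerating fibres. The plantaris of mice is mainly a fast muscle.

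In the RefSeq annotation of GRCm38.p6, Myh3, Myh2, Myh1, Myh4 and Myh8 lay next to each other in this order on chromosome 11, followed by Myh13, while Myh7 lay next to Myh6 on chromosome 14. The windows of RefSeq from 250 bases before to 50 bases after each annotated start were matched by symbol for all 6 members. The 250 bases before the start are shown for the chromosome 11 members, because these neighbouring genes, whose signals followed different courses, share short stretches there. They run 5′ to 3′ on the plus strand at chr11:67170777-67171026 for Myh2, chr11:67199852-67200101 for Myh1, chr11:67237562-67237811 for Myh4, chr11:67276874-67277123 for Myh8 and chr11:67078050-67078299 for Myh3. Capitals mark the stretches shared by several members and TATAAA on the strand shown.
Myh2: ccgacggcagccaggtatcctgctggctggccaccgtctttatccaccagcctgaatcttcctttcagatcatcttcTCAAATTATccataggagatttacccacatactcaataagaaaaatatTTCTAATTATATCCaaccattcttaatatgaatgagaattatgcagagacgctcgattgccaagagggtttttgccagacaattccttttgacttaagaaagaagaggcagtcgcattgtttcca
Myh1: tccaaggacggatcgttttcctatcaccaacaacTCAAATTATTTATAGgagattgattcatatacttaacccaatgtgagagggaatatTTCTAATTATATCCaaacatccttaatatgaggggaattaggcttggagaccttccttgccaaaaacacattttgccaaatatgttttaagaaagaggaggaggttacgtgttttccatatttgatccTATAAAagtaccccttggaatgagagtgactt
Myh4: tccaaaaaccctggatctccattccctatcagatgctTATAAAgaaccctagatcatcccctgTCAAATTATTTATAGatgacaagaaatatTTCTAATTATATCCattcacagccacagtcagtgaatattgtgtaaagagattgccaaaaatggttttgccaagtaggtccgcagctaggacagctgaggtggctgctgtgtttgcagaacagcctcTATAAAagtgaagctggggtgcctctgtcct
Myh8: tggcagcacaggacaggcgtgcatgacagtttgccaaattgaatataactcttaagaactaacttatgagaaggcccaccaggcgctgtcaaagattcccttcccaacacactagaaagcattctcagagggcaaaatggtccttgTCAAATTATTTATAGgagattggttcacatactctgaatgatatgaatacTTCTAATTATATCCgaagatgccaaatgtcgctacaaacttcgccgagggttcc
Myh3: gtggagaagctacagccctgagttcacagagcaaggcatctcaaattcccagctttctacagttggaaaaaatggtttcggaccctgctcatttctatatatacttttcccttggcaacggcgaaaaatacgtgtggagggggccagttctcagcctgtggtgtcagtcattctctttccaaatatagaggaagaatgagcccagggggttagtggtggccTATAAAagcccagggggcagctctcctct

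The 14-base run TTCTAATTATATCC was the longest shared by the windows of Myh2, Myh1, Myh4 and Myh8. It began at position -125 in Myh2, -160 in Myh1, -158 in Myh4 and -54 in Myh8, counted back from the start, and of 32851 windows in the RefSeq table only these 4 (0.0122%) held it on either strand. The 15-base run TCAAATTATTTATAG was shared by Myh1, Myh4 and Myh8, at -216, -187 and -104, and was found in 3 of the 32851 windows (0.00913%). Its first 9 bases, TCAAATTAT, also stood in the Myh2 window at -173, and were found in 0.18% of windows. Each run was picked because these windows share it, so its presence in them was fixed by the search. Neither of the longer runs was found in the windows of Myh3 or Myh7. The 3 adult fast genes, called lower on day 5 on the deposited scale, and Myh8, called higher, thus shared both the 14-base and the 9-base run.

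Of common promoter motifs, TATAAA on the plus strand stood at -29 in Myh3, -32 in Myh1, -31 and -213 in Myh4 and, past the annotated start, at position 11 in Myh2. On either strand TATAAA was found in 13.6% of all windows, and in Myh1, Myh4 and Myh8 its minus-strand match lay inside the 15-base run. A match to the MEF2 consensus, named for a family of muscle transcription factors, was found inside the same run in these 3 members and in 3.19% of all windows. The E-box CANNTG, the motif bound by MyoD-type factors, was found once in Myh3, at -191, at 2 places each in Myh8 and Myh7, at 3 places in Myh4, and in 72.3% of all windows. MCAT, spelled CATTCC, was found in Myh1, Myh4 and Myh7 and in 14.7% of windows, and a CArG box in Myh4 and in 1.63%. Both strands were searched, and a match describes letters and is not a binding site.

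**Figure D1:**
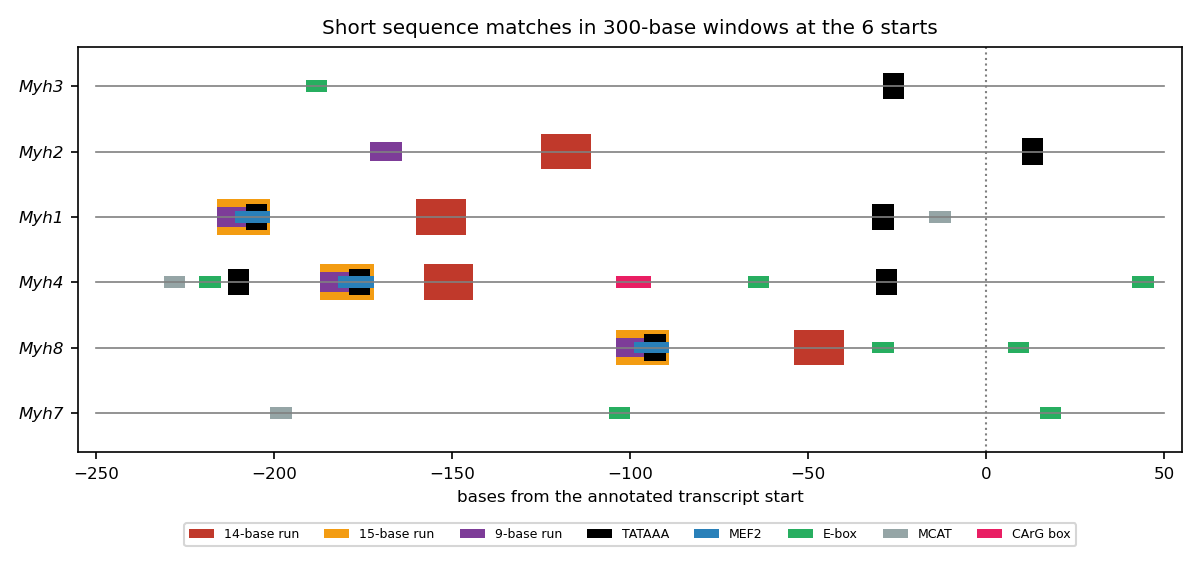
Matches in the 300-base RefSeq windows of the 6 members, on an axis of bases from the annotated start, with genes down the page and each coloured block a match on either strand. The 14-base run stands in 4 rows, at -125 in Myh2, -160 in Myh1, -158 in Myh4 and -54 in Myh8, and the 15-base run in 3 of them, with the MEF2 match inside it.

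The values are log2 signals, as deposited, and 1 unit is a 2-fold change. Array medians over all probe sets lay between 7.91 and 7.97, and across genes, which are not independent replicates, Pearson's r between the right and left pools lay between 0.9943 and 0.9971 on the 7 days. Day 0 signals of 24 genes made by muscle fibres had medians of 13.48 on the right and 13.53 on the left array, and those of 4 heart genes 8.09 on each array (signals of different probe sets share no common scale). Each difference carries limma's standard error (SE; 2 arrays a day) and was called at an adjusted p under 0.05 over all 19938 genes. An exact permutation test of 2 against 2 arrays cannot go below p = 0.33, so the tests are those of limma's moderated fit across all genes, whose precision 14 arrays limit. All comparisons with day 0 share its 2 arrays.

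Over all days limma's F test called all 6 members, as it did 79.5% of all genes. Myh3 and Myh8 had the smallest adjusted p values (limma, 4.99e-10 and 2.5e-09), and those of the other members lay between 0.000113 for Myh4 and 0.000645 for Myh7. Against day 0, on the deposited scale, the adult fast chains were all called lower on days 3 and 5, Myh2 up to day 10 and Myh4 up to day 14. Myh3 and Myh8 were much higher from day 5. With the median of the 24 fibre genes made equal on all arrays, the falls of the fast chains were lost or turned to rises. The rises of Myh3 and Myh8 were then larger. That scaling set the median difference of all genes at 0.409, 0.662, 0.689, 0.559, 0.519 and 0.305 on days 1, 3, 5, 7, 10 and 14, against 0.044, -0.071, -0.12, -0.14, -0.13 and -0.11 as deposited. In a muscle homogenate, fewer fibres, less RNA per fibre and a larger share of RNA from other cells cannot be told apart.

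**Figure D2:**
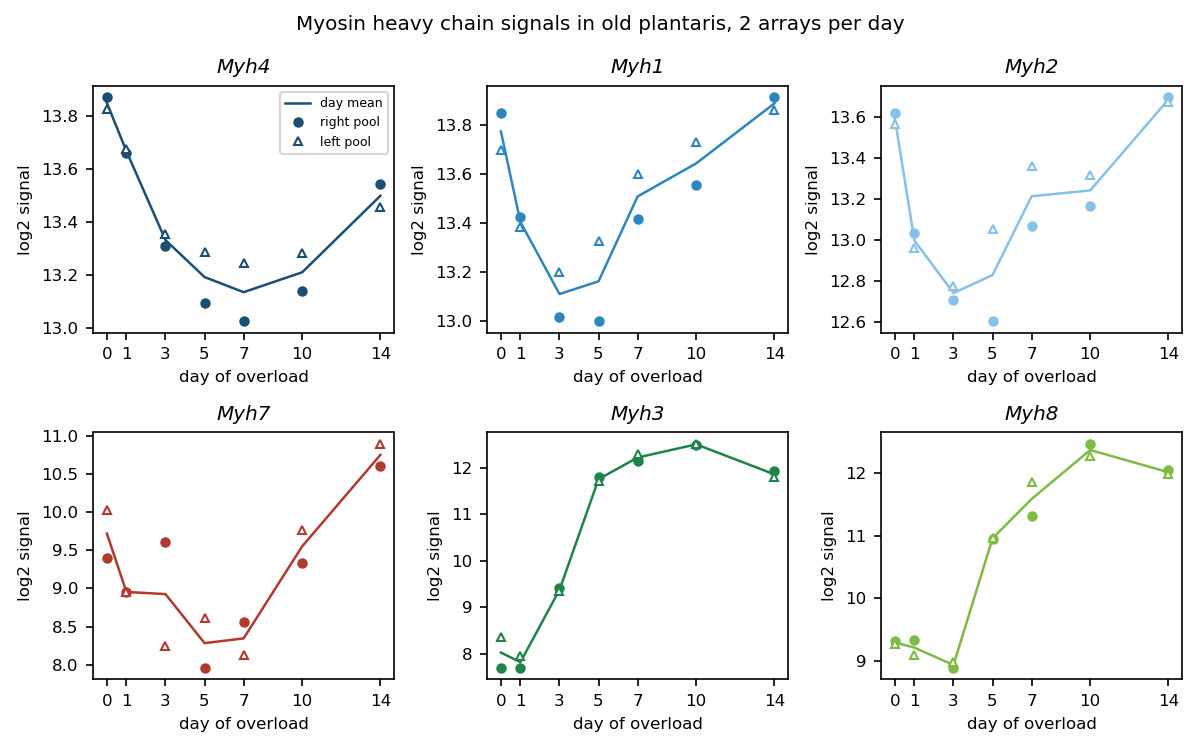
Log2 signal of each member (y axis, a scale of its own per panel) against the day of overload, with filled circles for right pools, open triangles for left pools and a line through the day means. Myh3 and Myh8 stand at 10.95 or above on all arrays from day 5, while Myh4, Myh1 and Myh2 stay between 12.60 and 13.91 throughout.

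On day 1 no member was called higher and 2 were called lower, Myh2 and Myh1, while 22.3% of all genes were called higher and 22.6% lower. On day 3 Myh3 was called higher and Myh1, Myh2 and Myh4 lower (24.1% of all genes higher, 26.6% lower). On day 5 all 6 members were called, Myh3 and Myh8 higher and the 4 adult chains lower (26.4% higher, 33.7% lower). On day 7 the calls were the same but for Myh1, which missed the threshold (26.6% higher, 36.3% lower). On day 10 Myh3 and Myh8 were higher and Myh4 and Myh2 lower (25.9% higher, 34.3% lower). On day 14 Myh3, Myh8 and Myh7 were higher and Myh4 alone was lower (22.9% higher, 30.5% lower). Since a large share of all genes was called on every day, the sizes of the changes follow for each member.

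Myh4, the IIb chain, had log2 signals of 13.87 (right) and 13.83 (left) on day 0. It read 13.66 and 13.67 on day 1, 13.31 and 13.36 on day 3, 13.10 and 13.29 on day 5, 13.02 and 13.24 on day 7, 13.14 and 13.28 on day 10, and 13.54 and 13.45 on day 14. Every array from day 1 on was below both day 0 arrays, and the lowest day was day 7. The difference from day 0 was -0.18 ± 0.09 on day 1 (limma adjusted p = 0.138), and Myh4 then fell by 0.52, 0.66, 0.71, 0.64 and 0.35 on days 3, 5, 7, 10 and 14 (SE 0.093). At its lowest, on day 7, it was 1.64-fold lower (limma adjusted p = 3.08e-05), and on day 14 still 1.27-fold lower (adjusted p = 0.00777). Relative to the fibre genes its difference lay between -0.01 and 0.22 on all days and was called on none.

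Myh1, the IIx chain, read 13.85 and 13.70 on the right and left arrays of day 0, 13.42 and 13.38 on day 1, 13.02 and 13.20 on day 3, 13.00 and 13.33 on day 5, 13.42 and 13.60 on day 7, 13.56 and 13.73 on day 10, and 13.91 and 13.86 on day 14. The arrays of days 1 to 7 were all below both day 0 arrays, those of day 10 overlapped them, and both day 14 arrays were above them. It fell by 0.37 ± 0.12 on day 1 (limma adjusted p = 0.0199), by 0.66 on day 3 and by 0.61 on day 5 (adjusted p = 0.000353 and 0.000609), which is 1.58-fold and 1.53-fold. The later differences of -0.27, -0.13 and 0.11 were not called (limma adjusted p = 0.0626, 0.342 and 0.421), and the 95% interval of the last ran from -0.139 to 0.366. The day 7 difference was called lower under 4 alternatives, quantile normalization (-0.36), equal array medians (-0.30), the lowest 25% of genes left out and the intensity trend with robust estimation. The day 1 call was lost when either day 1 array or the day 0 right array was left out (-0.29 without that day 0 array), and relative to the fibre genes the differences of days 3 and 5 turned to 0.07 and 0.20.

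Myh2, the IIa chain, read 13.61 and 13.56 on day 0, 13.03 and 12.96 on day 1, 12.71 and 12.77 on day 3, 12.60 and 13.05 on day 5, 13.07 and 13.36 on day 7, 13.16 and 13.32 on day 10, and 13.69 and 13.67 on day 14 (right and left). It had the largest early fall of the 3 fast chains and was back above both day 0 arrays on day 14. It fell by 0.59 ± 0.13 on day 1, 0.85 on day 3 and 0.76 on day 5 (limma adjusted p = 0.00255, 0.000137 and 0.000305), which is 1.8-fold at its lowest. The falls of 0.38 on day 7 and 0.35 on day 10 were called narrowly (limma adjusted p = 0.0253 and 0.0373), and the day 14 difference of 0.09 was not (adjusted p = 0.564, 95% interval -0.194 to 0.381). The day 10 call was lost when any of the 4 arrays compared was left out, with differences from -0.42 to -0.27, and the day 7 call when either day 0 array or the day 7 right array was left out (-0.23 without that array). Relative to the fibre genes Myh2 stood at -0.12 on day 3 and at 0.05 on day 5.

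The 3 fast chains parted from each other over time, and this comparison within arrays is untouched by the scaling of an array. The change of Myh1 minus that of Myh4 was -0.19 on day 1, -0.15 on day 3, 0.04 on day 5, 0.45 on day 7, 0.51 on day 10 and 0.46 on day 14 (SE 0.063). Myh2 minus Myh4 ran the same way, at -0.41, -0.33, -0.11, 0.34, 0.29 and 0.44 (SE 0.078). In both comparisons the right and the left array were each below 0 on days 1 and 3 and above 0 on days 7, 10 and 14. The signal of Myh4, the fastest chain, thus held up longest and recovered least. Myh1 minus Myh2 stayed between 0.02 and 0.22 (SE 0.062), with both arrays above 0 on days 1 to 10. Over the 14 arrays, which share days, Myh1 and Myh2 correlated at r = 0.975, and Myh4 correlated with them at 0.462 and 0.494, given as a description. Since the highest signal on any array was 14.79, the high signals of the fast chains left little room upward, and saturation was not tested.

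**Figure D3:**
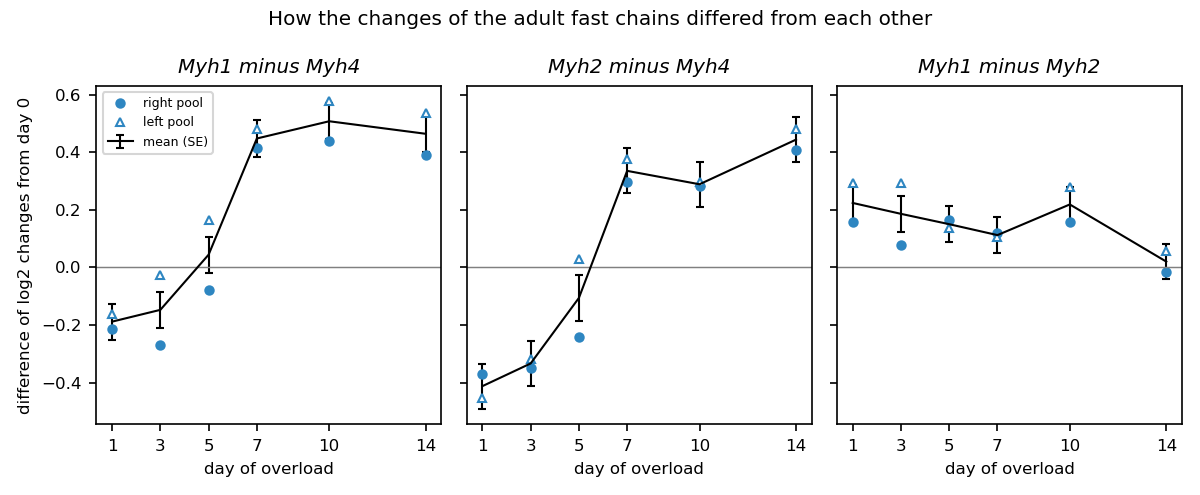
Difference between the log2 changes from day 0 of 2 fast chains (y axis) on each day (x axis), with filled circles for right pools, open triangles for left pools and a line with SE bars for the mean. Myh1 minus Myh4 and Myh2 minus Myh4 run from -0.19 and -0.41 on day 1 to 0.46 and 0.44 on day 14, while Myh1 minus Myh2 stays between 0.02 and 0.22.

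Relative to the fibre genes, Myh1 and Myh2 were 0.53 and 0.51 above day 0 on day 14 (limma adjusted p = 0.003 and 0.00409). On that scale Myh1 was also called higher on days 7 and 10, at 0.43 and 0.52, and Myh2 on day 7, at 0.32. The fibre genes themselves were not level on it: their differences had medians of 0.232, 0.274 and 0.273 on days 7, 10 and 14. On day 14 9 of them were called higher and 4 lower, so these values are not excesses over the typical fibre gene. The scaling moved each array by the median level of the fibre genes. As deposited that level was 13.48 and 13.53 on the right and left arrays of day 0, 12.54 and 12.85 on day 5, and 13.08 and 13.10 on day 14. The median of the genes' own differences from day 0 was another measure, at -0.328, -0.608, -0.727, -0.468, -0.373 and -0.143 on days 1 to 14. On day 5 21 of the 24 measured were called lower. Tcap, the titin cap protein, Jph1, which ties the sarcoplasmic reticulum to the surface tubules, and Ampd1, the muscle AMP deaminase, changed most, and fell by 2.22, 2.12 and 1.99 on days 5, 3 and 5. The fibre genes did not fall alike: on day 5 their differences ran from -2.22 to 0.04 and 3 were not called. On days 1 and 14 1 fibre gene was called higher. Of 12 partner genes of fast fibres 11 were called lower on day 5, with a list median of -0.966, and under the fibre scaling 4 were lower and 2 higher. Mybpc2, the fast myosin-binding protein C, fell by 1.57 ± 0.15 on day 7, and the fast troponin gene Tnni2 and the calcium buffer Pvalb fell by 1.41 and 1.33 on day 5. These 3 were also called lower on those days under all 3 scalings tried.

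Myh7, the slow chain, was the least even member between pools. Its signals were 9.40 and 10.03 on day 0, 8.96 and 8.95 on day 1, 9.60 and 8.24 on day 3, 7.96 and 8.61 on day 5, 8.56 and 8.13 on day 7, 9.33 and 9.77 on day 10, and 10.60 and 10.89 on day 14 (right and left). Both arrays of days 1, 5 and 7 were below both of day 0, the right array of day 3 lay between them and the left array below them, and both day 14 arrays were above. Myh7 fell by 1.43 ± 0.37 on day 5 and by 1.37 on day 7, 2.7-fold and 2.59-fold (limma adjusted p = 0.00491 and 0.00631). On day 14 it was 1.03 ± 0.37 higher, 2.04-fold (limma adjusted p = 0.0327), and the differences of -0.76, -0.79 and -0.17 on days 1, 3 and 10 were not called. The day 14 call was lost without the day 0 right array (0.72) or without either day 14 array (1.18 and 0.88 without the right and the left). The day 5 call was lost without the day 5 right array (-1.11), and the day 7 call without the left array of day 0 or of day 7 (-1.06 and -1.15). Relative to the fibre genes Myh7 was at -0.62 on day 5, not called, at -0.67 on day 7 and at 1.45 on day 14, called with limma adjusted p of 0.0484 and 0.000407.

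The right pool of day 3 read 1.36 higher than the left for Myh7, and 0% of the 19938 genes had a larger gap between the pools of that day. On day 0 the right pool read 0.63 lower, and 1.33% of genes had a larger gap. On both days 9 of 10 partner genes of slow fibres had a gap of the same sign, with medians of 0.231 on day 3 and -0.251 on day 0. On days 5, 7 and 10, when right minus left of Myh7 was -0.648, 0.437 and -0.434, 7, 4 and 7 of the 10 had its sign, with medians of -0.061, -0.094 and -0.024. On days 1 and 14, when right minus left of Myh7 was 0.011 and -0.295, 1 and 6 of the 10 had its sign. The medians were then -0.222 and -0.019. The share of all genes with a gap of the same sign was not counted. On day 3 right minus left was 1.04 for Tnnt1, 0.93 for Tnnc1 and 0.48 for Tnni1, the slow troponins, and 0.78 for the slow light chain Myl3. On day 0 it was -0.44, -0.75 and -0.74 for the 3 troponins. It was 0.016 on day 3 for the calsequestrin Casq2, 0.11 for the light chain Myl2, 0.142 for Tpm3, 0.153 for Myoz2 and -0.054 for Mybpc1. The part of these pool differences in the change of Myh7 was not tested beyond leaving out each array: without the day 3 right array the day 3 difference became -1.47 and was called. Over all days the right minus left difference was called for none of the 6 members (limma adjusted p from 0.554 to 0.975, unadjusted from 0.101 to 0.901), as for 0% of all genes, while 10.5% of all genes had an unadjusted p under 0.05.

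The partner genes of slow fibres did not all move as Myh7 did. Whether each of them marked slow fibres in this muscle was not tested, and Tnni1 was the nearest gene to the embryonic chain Myh3 (r = 0.992). Of 10 slow partners 6 were called higher and 4 lower on day 5, and 7 higher and 1 lower on day 14, with list medians of 1.01 and 1.19 (under the fibre scaling 6 higher and 2 lower, and 7 higher and 0 lower). Tnni1 read 11.92 on both arrays of day 5, against 9.33 and 10.07 on day 0. It rose by 2.22 ± 0.20 on day 5 and 2.82 on day 10, and Tnnc1 rose by 2.50 on day 10, in the days when Myh7 was low or at its day 0 level. The slow light chains were low for longer than Myh7. Myl3 fell by 1.13, 1.49, 2.63, 2.58 and 1.87 on days 1, 3, 5, 7 and 10 (SE 0.242), and Myl2 by 1.52, 1.63, 2.33, 1.62 and 1.64 (SE 0.324), while Myh7 was called lower on days 5 and 7 alone. On day 14 Myl2 stood at -0.37, not called, and Myl3 was still lower by 0.92, while Myh7 was higher. Tnni1, Tnnc1 and Myl3 kept these directions and calls on days 5 and 10 under all 3 scalings tried. Whether the single probe set of Myh7 missed part of its transcripts was not tested.

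**Figure D4:**
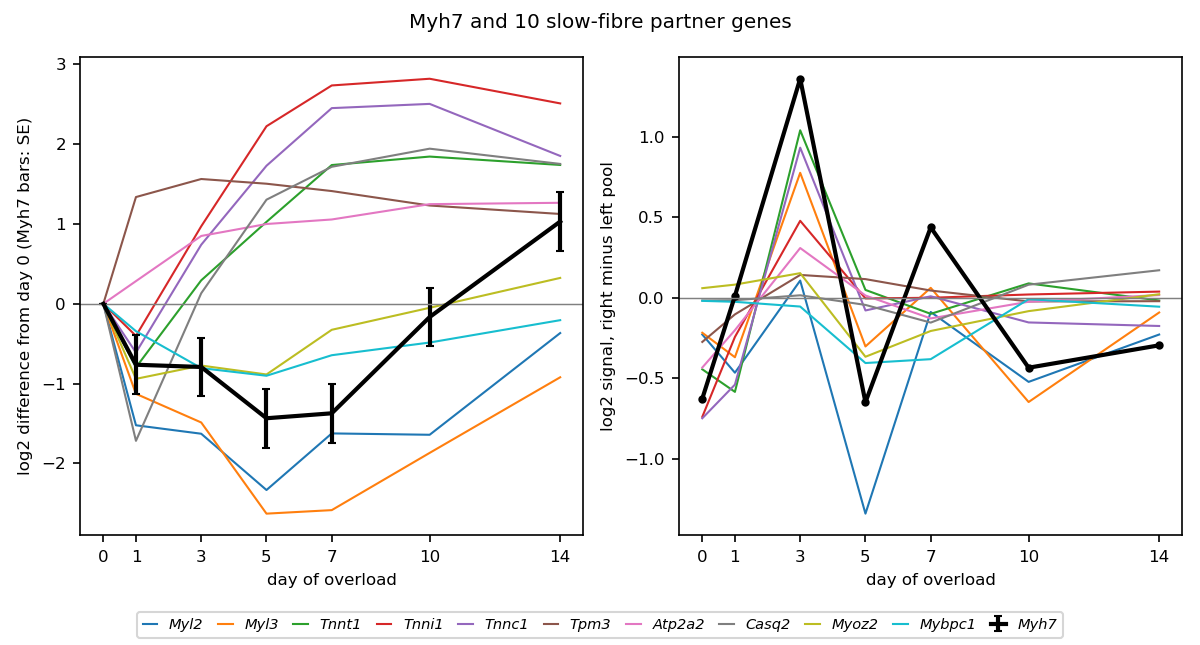
Left panel, log2 difference from day 0 of Myh7 (black, SE bars) and 10 slow-fibre partner genes (coloured lines) against the day. Right panel, log2 signal of the right minus the left pool for the same genes. Myh7 lies at -1.43 on day 5, where Tnni1 is at 2.22 and Myl3 at -2.63, and the gap between the pools of day 3 is 1.36 for Myh7 and 1.04 for Tnnt1.

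Myh3, the embryonic chain, had the largest change of the family. It read 7.70 and 8.35 on the right and left arrays of day 0, 7.70 and 7.94 on day 1, 9.41 and 9.34 on day 3, 11.80 and 11.71 on day 5, 12.14 and 12.30 on day 7, 12.49 and 12.52 on day 10, and 11.92 and 11.80 on day 14. The arrays of days 0 and 1 overlapped, and from day 3 every array was above both. Myh3 rose by 1.35 ± 0.16 on day 3, 3.73 on day 5, 4.20 on day 7, 4.48 on day 10 and 3.83 on day 14. At its highest it was 22.3-fold above day 0 (limma adjusted p = 8.68e-10), and on day 14 it was 14.3-fold above (adjusted p = 4.84e-09). The day 0 arrays differed by 0.66, so that without the right or the left of them the day 10 difference was 4.15 or 4.81, and that of day 1, -0.21 in the fit of all arrays and not called, was -0.53 or 0.12.

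Myh8, the perinatal chain, read 9.32 and 9.27 on day 0, 9.34 and 9.09 on day 1, 8.89 and 8.98 on day 3, 10.95 and 10.96 on day 5, 11.31 and 11.86 on day 7, 12.47 and 12.27 on day 10, and 12.05 and 11.98 on day 14 (right and left). On day 3, when Myh3 had already risen, both Myh8 arrays were below those of day 0, at a difference of -0.36 ± 0.145 that was not called (limma adjusted p = 0.0555). It then rose by 1.66 on day 5, 2.29 on day 7, 3.08 on day 10 and 2.72 on day 14, and its highest value was 8.43-fold above day 0 (limma adjusted p = 5.92e-09). The day 3 difference was called lower under 5 alternatives: quantile normalization (-0.45), equal array medians (-0.37), and, at the same -0.36, the lowest 25% of genes left out, an intensity trend with robust estimation, and a fit of only the 4 arrays compared. Relative to the fibre genes it was called higher, at 0.37 (adjusted p = 0.0353). On day 7 the left pool read 0.54 above the right, and 0.451% of genes had a larger gap.

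Myh3 led Myh8. The change of Myh3 minus that of Myh8 was 1.71 on day 3, 2.07 on day 5, 1.90 on day 7, 1.40 on day 10 and 1.12 on day 14 (SE 0.27), and both arrays were above 0 on each of these days. The change of Myh4 minus that of Myh3 was -5.12 on day 10, the widest gap between 2 members on that day. Myh3 and Myh8 were both highest on day 10, and their signals correlated at r = 0.919 over the 14 arrays, while Myh3 and Myh4 correlated at -0.793. Relative to the fibre genes the rises on day 10 were 5.12 for Myh3 and 3.72 for Myh8.

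**Figure D5:**
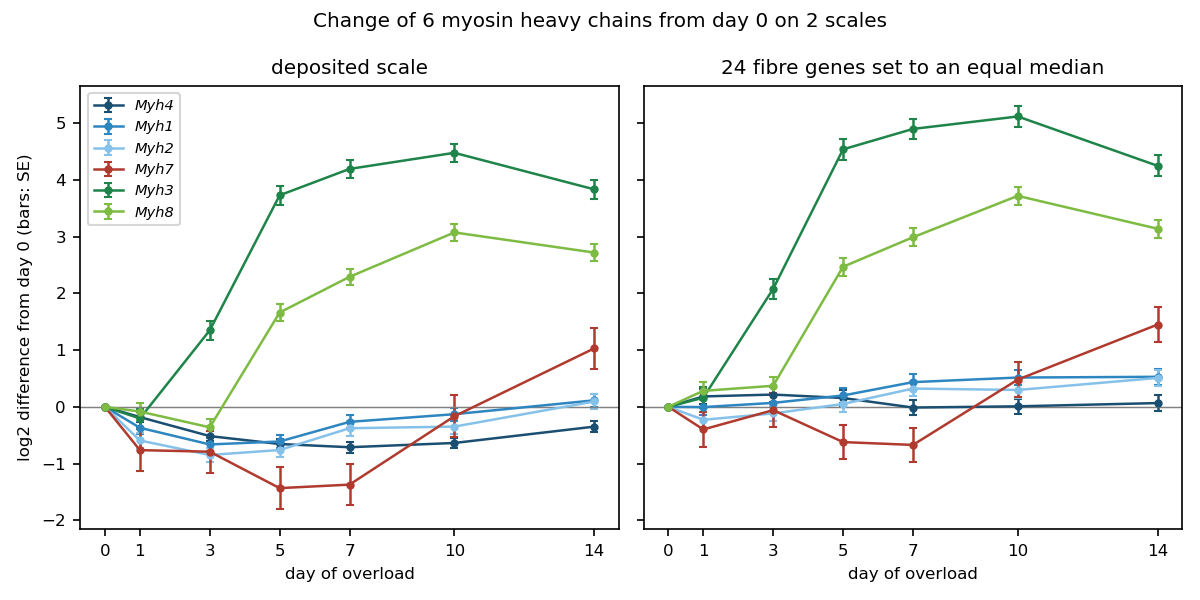
Log2 difference from day 0 (y axis, bars SE) of the 6 members against the day, on the deposited scale (left) and with the median of 24 fibre genes set equal on all arrays (right). Myh3 and Myh8 reach 4.48 and 3.08 on day 10 as deposited and 5.12 and 3.72 on the other scale, while the fast chains lie below 0 on days 1 to 10 as deposited and between -0.23 and 0.53 on the other scale.

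From one sampled day to the next few changes of the family were called. Between days 3 and 1 Myh3 rose by 1.55 ± 0.16 and Myh4 fell by 0.33 ± 0.09 (19.5% of all genes higher, 24.7% lower). Between days 5 and 3 Myh3 rose by 2.38 and Myh8 by 2.02 (limma adjusted p = 1.11e-05 and 1.35e-05), when 4.68% of all genes were called higher and 1.9% lower. Between days 7 and 5 no member was called by limma, as few genes were (0.401% higher, 0.627% lower), although 4 members (Myh1, Myh2, Myh3 and Myh8) had an unadjusted p under 0.05. Between days 10 and 7 Myh8 rose by 0.78 ± 0.145 (limma adjusted p = 0.0238, with 0.933% higher and 1% lower). The larger difference of Myh7, 1.205 ± 0.367, was not called (limma adjusted p = 0.128). Between days 14 and 10 Myh3 fell by 0.64 ± 0.16 (limma adjusted p = 0.0314, with 3.79% higher and 5.11% lower), and Myh8, at -0.36, was not called. The adult chains Myh7, Myh2, Myh4 and Myh1 were at 1.196, 0.443, 0.288 and 0.244, not called either (limma adjusted p = 0.0638, 0.0577, 0.0767 and 0.226). The Myh3 fall of day 14 was not called when any array of day 10 or 14 was left out.

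On the deposited scale genes listed as developmental were higher from day 3, as Myh3 was, and before Myh8 rose. Whether each of them marked developing fibres here was not tested. On day 1, when neither member was called, 3 of 8 such genes were already higher and 1 lower: Chrnd rose by 1.36, Mybph by 0.62 and Chrng by 0.59, and Actc1 fell by 0.61. All 8 were called higher on each of days 3, 5, 7, 10 and 14, also under the fibre scaling, with a list median of 2.35 on day 5. Tnnt2, the cardiac and embryonic troponin T, rose by 2.99 ± 0.11 on day 10, Actc1, the cardiac and embryonic actin, by 2.89, and Chrng, the fetal subunit of the acetylcholine receptor, by 2.93 on day 7. Of 9 genes listed as myogenic or fusion genes 3 were higher and 2 lower on day 1, and 7 higher and 1 lower on day 5. On day 7 8 were higher and 0 lower, and on day 10 8 higher and 1 lower. Mymk, the fusion protein myomaker, rose by 4.02 ± 0.10 and Myog, the differentiation factor myogenin, by 3.27 ± 0.09 on day 7. Myog was already 1.14 above day 0 on day 1, when Myh3 and Myh8 were not called. Cdkn1c, a cell cycle inhibitor, rose by 1.60 on day 10.

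The other myosin heavy chain genes measured did not form 1 pattern. Myh9, a nonmuscle chain, rose on every day from 1 on, most on day 5 (1.58 ± 0.10), and Myh10, another nonmuscle chain, from day 5, with 1.05 on day 14. Myh11, the smooth muscle chain, fell by 1.42 ± 0.13 on day 1, and its day 14 value of -0.29 was not called. Myh13, the extraocular chain that follows Myh8 on the chromosome, fell by 1.13 ± 0.10 on day 5 while Myh8 rose. Myh6, the alpha chain of heart muscle and neighbour of Myh7, fell by 1.01 ± 0.12 on day 7 and by 0.58 on day 14, when Myh7 was higher. Myh14, a nonmuscle chain, fell by 0.89 on day 10, Myh7b by 0.53 on day 7, and Myh15 by 0.38 on day 10. Of the 8 genes 6 were lower and 2 higher on day 5, and under the fibre scaling 1 lower and 3 higher. Myh7b and Myh15 turned sign under it on days 3 to 14. Under it Myh6 on days 7 and 14 and Myh14 on day 10 were not called, at -0.31, -0.17 and -0.24. Myh13 on day 5 was at -0.31 and barely called (limma adjusted p = 0.0498). Day 0 signals on the right and left arrays were 8.01 and 7.91 for Myh13 and 8.45 and 8.33 for Myh6. The medians of all genes on these arrays were 8.25 and 8.29, and Myh15 read lower, at 5.91 and 5.57. The microRNA genes Mir208a and Mir499, carried in introns of Myh6 and Myh7b, were lower on day 14 by 0.20 and 0.39 (limma adjusted p = 0.0327 and 0.0275), and at 0.21 and 0.02 under the fibre scaling. Under quantile normalization the day 14 difference of Mir208a was not called (limma adjusted p = 0.0539) and that of Mir499 barely was (adjusted p = 0.0488). On the right and left arrays of day 0 Mir208a read 5.14 and 5.09, and Mir499 5.78 and 5.94. Whether the low signals among these genes lay above background was not tested.

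Most genes of the thick filament and of its breakdown were lower from day 5 to day 10 on the deposited scale. Of 10 thick filament genes 7 were lower and 2 higher on day 5, with a list median of -0.986 (under the fibre scaling 4 lower and 4 higher). Mybph, a myosin-binding protein H that the developmental list also holds, rose by 2.59 ± 0.09 on day 7, against falls of Myom1, an M-band protein, by 1.71 on day 5 and of Mybpc2. Of the ubiquitin ligases that mark muscle proteins for degradation, Trim63, which targets myosin heavy chain, rose by 1.54 ± 0.15 on day 1, with 12.82 and 12.89 on the right and left arrays of day 1, against 11.52 and 11.09 on day 0. From day 5 to day 14 all 4 ligase genes were called lower on the deposited scale and 3 of 4 under the fibre scaling. Fbxo32 fell by 1.95 ± 0.13 and Trim54 by 1.51 on day 10, and Trim55 fell by 1.39 on day 1.

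Of 21 measured regulators of fibre type 14 were lower and 3 higher on day 5, with a list median of -0.682 (under the fibre scaling 6 lower and 10 higher). Ppargc1a, a coactivator of oxidative genes, fell by 2.53 ± 0.21 on day 3, Tbx15, a factor of glycolytic fibres, by 1.74 on day 3, and Eya1, a transcription cofactor of fast fibres, by 1.73 on day 5. These 3 were lower under all 3 scalings tried.

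By a fixed measure of likeness, Pearson's r over the 14 arrays among 4279 genes whose day means spanned at least 1, the nearest genes of each member were as follows. Myh1 was nearest to Map1lc3a (0.976), Casq1, Atp1b2 and Map3k7cl, and Myh2 to Casq1 (0.967), Neu2, Shisa4 and Ppp1r14c. Myh4 was nearest to Mybpc2 (0.988), Plekhb1, Vldlr and Clip1. Myh3 was nearest to Tnni1 (0.992), Peg3, Pakap and Capn6, and Myh8 to C1ql3 (0.982), Zdbf2, Ptn and Fbn2. The nearest gene to Myh7 was Clec3b at only 0.841, followed by Gldn, Cpm and Krt10, with none of its slow partners among the 4. Arrays of a day share animals, so these values describe likeness of course and carry no p.

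Other cell types changed in the same muscles. On day 3 all 7 macrophage genes were called higher, with a median level of 11.75 and 11.85 on the right and left arrays, against 8.85 and 9.15 on day 0, and the lysosomal genes Ctss and Cd68 rose by 3.78 and 3.59. The macrophage surface gene Adgre1 rose by 3.05 on day 5. Of 6 fibroblast genes 5 were higher on days 3 to 10 and 6 on day 14, when their median level was 13.00 and 13.13, against 10.12 and 10.41 on day 0. Col1a1, Col3a1 and Col1a2, the main fibrillar collagens, rose by 3.29 on day 10, 3.25 on day 14 and 3.03 on day 10. Of 4 smooth muscle genes, Myh11 among them, 3 were higher and 1 lower on day 7, with median levels of 10.05 and 10.03 on day 7 against 9.66 and 9.81 on day 0. Tagln rose by 1.47 and Acta2 by 1.39 on day 7, and Myh11 fell by 1.06. Of 4 endothelial genes 2 were lower and 2 not called on day 1, and 2 were higher and 2 lower on day 5, with median levels of 9.65 and 9.93 on day 1 against 10.53 and 10.58 on day 0. Kdr fell by 1.24 and Tek by 1.16 on day 1, and on day 5 Kdr was still lower by 0.59 while Cdh5 rose by 0.89. Of 4 heart genes all 4 were lower from day 5 to day 14, Ryr2 by 0.57 on day 7 and Tnni3 by 0.44 on day 3, and the Schwann cell gene Sox10 was lower by 0.38 on day 7. Under the fibre scaling these last 3 genes stood at 0.13, 0.29 and 0.33. Detection calls were not used here, and the part of these cells in the changes of the family was not tested.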

How the data were processed

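The authors deposited log2 signals per probe set of 14 Affymetrix Mouse Gene 1.0 ST arrays, per the labels 2 for each of 7 days. Partek is named, without a version, per the submitters' processing notes, and no source used here states how the arrays were normalized. For the RNA input, the design text says 100 ng and the labelling protocol 250 ng. Of 35557 probe sets, 21789 had 1 symbol in the platform annotation, and for 999 genes with several such probe sets the one with the highest mean was used, which left 19938 genes and no filter on low values. Scanner files were not used here.

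All 14 arrays entered 1 linear model in limma 3.58.1 under R 4.3.3 (day as group, 7 residual degrees of freedom, prior 4.95), and two-sided p-values were adjusted over the 19938 genes with the Benjamini-Hochberg method, with calls under 0.05. The fit was tested on simulated data. The members and gene lists were chosen with earlier results of these data known. Named genes are the members, all measured other myosin heavy chain, intronic microRNA and ligase genes, for each other list the 3 genes whose called change on any day was largest, and the 4 nearest genes of each member. Tnnt1, Casq2, Myl2, Tpm3, Myoz2, Mybpc1 and Chrnd were named besides, after their values were seen. Capn3 had probe sets with several symbols only. Mir208b and 2310065F04Rik had no probe set used here, some other listed genes are not reported here, and of the Schwann cell list only Sox10 was analysed. Promoter windows are from RefSeq (GRCm38.p6).

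Alternatives were quantile normalization, equal array medians, an equal median of the fibre genes, the lowest 25% of genes left out, each single-symbol probe set on its own, a gene's probe sets averaged, trend with robust estimation, array weights, side as a block, fits of only the 4 arrays compared, a threshold of 0.01 and each array left out. Right minus left differences correlated between days at r from -0.185 to 0.354 (6 of 21 pairs of days over 0.1), so the sides were not treated as pairs.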

Additional observations from a re-analysis of the deposited data

Results flagged for a closer look

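In 3 comparisons the right pools moved one way from day 0 and the left pools the other, and the difference was not tested in any of them. For Myh7 on day 3 the right pool stood at 0.20 and the left pool at -1.78 relative to day 0 of the same side, a difference of 1.985, and the slow troponins differed between the pools in the same direction on both days. For Myh1 on day 10 the right pool stood at -0.29 and the left at 0.03, a difference of -0.326. For Myh8 on day 1 the right pool stood at 0.015 and the left at -0.18, a difference of 0.197. With 1 array per side and day, none of these has a replicate.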

How the results depend on the processing

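Testing each single-symbol probe set on its own and averaging a gene's probe sets could not move the values of the members, each of which had 1 such probe set. All 6 members kept their F test call under all alternatives. The widest changes came with the median of the fibre genes made equal, which by construction takes out the change of their median level and gives every gene the noise of that level. The fibre genes' own differences then still had medians of 0.037, 0.125, 0.084, 0.232, 0.274 and 0.273 on days 1, 3, 5, 7, 10 and 14. Under that scaling Myh1 stood at 0.069, 0.20, 0.43 and 0.52 on days 3, 5, 7 and 10, and Myh2 at 0.0497, 0.32 and 0.30 on days 5, 7 and 10, all reversed. Myh4 stood at 0.18, 0.22, 0.16, 0.0085 and 0.066 on days 1, 3, 5, 10 and 14, Myh8 at 0.28 and 0.37 on days 1 and 3, Myh3 at 0.16 on day 1 and Myh7 at 0.48 on day 10, also reversed. Members called lower were then 0, 0, 0, 1, 0 and 0 on days 1, 3, 5, 7, 10 and 14, and members called higher 2, 4 and 5 on days 3, 7 and 14. Members called between successive days were 1 for days 3 and 1, 0 for days 10 and 7 and 3 for days 14 and 10. On day 1 the 2 members lower became 1 under quantile normalization, array weights and a threshold of 0.01, and on day 10 the 2 became 1 under array weights and that threshold. Between days 3 and 1 the 2 members called became 4 under quantile normalization and 1 at 0.01. Between days 7 and 5 the 0 became 1 without the lowest 25% of genes, with the intensity trend and with array weights. Between days 10 and 7 the 1 became 0 at 0.01. Between days 14 and 10 the 1 became 3 under quantile normalization, the intensity trend and only the 4 arrays compared, 4 without the lowest 25% of genes, 2 with side as a replicate block and 0 at 0.01. The replicate block changed no other count of members. The Myh7 call of day 14 was also lost with the intensity trend, array weights and the threshold of 0.01. The causes were not tested. With each array left out in turn, members lower ranged from 1 to 3 on day 1, 1 to 4 on day 7 and 1 to 2 on day 10, and members called from 1 to 3 for days 3 and 1, 0 to 1 for days 7 and 5, 0 to 1 for days 10 and 7 and 0 to 2 for days 14 and 10. Myh3 on day 1 ranged from -0.53 to 0.12, Myh8 on day 1 from -0.21 to 0.042 and Myh7 on day 10 from -0.48 to 0.15 (0.051 without the right array of day 10). With 2 arrays per day, no detection calls and signals near the top of the range, small differences of the fast chains are least certain.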
